A study of Mus musculus with 4 samples.

Results

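Ring1B peaks at promoters are the peaks of the Ring1B ChIP-seq library that had at least 1 base within 4 kb of an annotated transcription start site (TSS) of a protein-coding gene in mm9. This rule took 3723 of the 10119 Ring1B peaks (36.8%, 95% Wilson interval 35.9% to 37.7%), next to 4872 peaks at 4 to 100 kb from a TSS and 1524 peaks beyond 100 kb. The cells were E14 mES cells of strain 129/Ola, a mouse embryonic stem cell line, grown without feeder cells in N2B27 medium with 1 μM PD0325901, 3 μM CHIR99021 and 1000 U/ml LIF and fixed for 10 min in 1% formaldehyde. All cells had this genotype and treatment, and the libraries are 1 each for Dzip3, Ring1B, ubiquitylated H2A (ubH2A) and input DNA, which was not immunoprecipitated. With 1 library per target no value has a replicate error, no p-value was computed, and the intervals of shares and medians cover only the counting of peaks or genes. The sample labels give shearing with a Picoruptor and the methods of the study give micrococcal nuclease for ChIP-seq, and the listed values do not show which was used. Peaks just inside the rule lay 3981 to 3990 bp from a TSS and held 36 to 155 Ring1B reads, and those just outside lay 4004 to 4012 bp away and held 62 to 392.

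Ring1B, encoded by Rnf2, is the catalytic ubiquitin ligase of Polycomb repressive complex 1, which places a single ubiquitin on histone H2A. In ES cells the complex is known to occupy CpG islands, stretches of DNA that keep many CG pairs, at the promoters of silent developmental regulators. Dzip3 is another ligase that ubiquitylates H2A, and it can bind RNA.

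The sequences below are the 150 bases at the centre of a peak, read from the mm9 genome on the strand of the gene, with every CG pair in capitals. They show the leading peaks of several gene lists, outside untranslated regions, beside peaks that held many reads of all 3 ChIP libraries. The window in Hoxa9 (chr6:52175721-52175870, minus strand) is coding exon, as are those in Six3 (chr17:86020728-86020877, plus strand), Olig2 (chr16:91226661-91226810, plus strand), Hspa2 (chr12:77506322-77506471, plus strand) and Cdkn1c (chr7:150645735-150645884, minus strand). The windows in Tbx1 (chr16:18586372-18586521, minus strand) and Gata2 (chr6:88149149-88149298, plus strand) are intron, and that in Dhh (chr15:98725448-98725597, minus strand) is coding exon over 58 bases and otherwise intron. The first 5 windows held 16, 18, 12, 19 and 14 CG pairs in this order, and those of Tbx1, Gata2 and Dhh held 15, 7 and 8.
Hoxa9: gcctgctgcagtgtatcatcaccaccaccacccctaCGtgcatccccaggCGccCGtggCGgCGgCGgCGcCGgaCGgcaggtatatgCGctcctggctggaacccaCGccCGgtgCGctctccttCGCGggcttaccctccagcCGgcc
Six3: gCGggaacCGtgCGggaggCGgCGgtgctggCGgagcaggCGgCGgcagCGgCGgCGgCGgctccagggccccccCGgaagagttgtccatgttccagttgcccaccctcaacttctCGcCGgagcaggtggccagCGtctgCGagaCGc
Olig2: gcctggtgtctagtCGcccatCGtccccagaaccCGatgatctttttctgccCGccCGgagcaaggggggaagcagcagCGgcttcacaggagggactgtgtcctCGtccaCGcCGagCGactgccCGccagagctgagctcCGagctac
Hspa2: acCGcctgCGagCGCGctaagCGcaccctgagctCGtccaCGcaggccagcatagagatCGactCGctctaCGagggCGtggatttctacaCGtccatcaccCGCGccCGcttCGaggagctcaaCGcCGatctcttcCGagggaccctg
Cdkn1c: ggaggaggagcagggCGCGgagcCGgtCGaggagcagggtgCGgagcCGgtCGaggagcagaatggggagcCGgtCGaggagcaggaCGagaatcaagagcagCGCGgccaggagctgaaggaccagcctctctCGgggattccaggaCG
Tbx1: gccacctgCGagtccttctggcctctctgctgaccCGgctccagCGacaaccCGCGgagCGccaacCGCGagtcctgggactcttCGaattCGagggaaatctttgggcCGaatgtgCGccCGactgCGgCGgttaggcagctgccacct
Gata2: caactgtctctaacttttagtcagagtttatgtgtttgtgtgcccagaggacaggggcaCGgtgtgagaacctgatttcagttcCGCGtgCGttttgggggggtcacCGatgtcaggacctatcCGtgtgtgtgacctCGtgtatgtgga
Dhh: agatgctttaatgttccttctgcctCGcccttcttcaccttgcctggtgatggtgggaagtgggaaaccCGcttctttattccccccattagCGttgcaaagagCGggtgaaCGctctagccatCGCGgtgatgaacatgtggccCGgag

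The other 3 windows belong to the promoter peaks without an input peak that had the greatest height in RPM, 1 peak near Tmem125 and 2 peaks near Muc19. The Tmem125 window (chr4:118220545-118220694, minus strand) lies outside protein-coding genes and held 5 CG pairs. The Muc19 windows on the plus strand are intron (chr15:91738253-91738402, 4 CG pairs) and coding exon (chr15:91740308-91740457, 5 CG pairs).
Tmem125: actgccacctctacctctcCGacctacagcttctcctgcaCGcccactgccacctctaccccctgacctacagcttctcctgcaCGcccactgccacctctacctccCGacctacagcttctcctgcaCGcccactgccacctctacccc
Muc19 intron: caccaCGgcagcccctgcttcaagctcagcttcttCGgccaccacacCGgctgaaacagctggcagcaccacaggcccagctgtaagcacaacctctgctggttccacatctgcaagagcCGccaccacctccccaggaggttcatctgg
Muc19 exon: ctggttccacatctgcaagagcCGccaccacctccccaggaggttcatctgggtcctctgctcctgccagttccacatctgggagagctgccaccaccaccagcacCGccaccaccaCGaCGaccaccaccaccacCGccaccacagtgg

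Against itself shifted by 44 bases, the Tmem125 window matched at 83.0% of positions, and the pair of Muc19 windows shared an unbroken run of 52 bases. At its best shift between 10 and 75 bases, Cdkn1c matched at 64.3% of positions and the Muc19 windows at 56.3% and 56.0%. The same measure lay between 35.1% for Olig2 and 45.2% for Six3 in the other 7 windows. The repeat was clearest in Tmem125, and Cdkn1c repeated more than either Muc19 window did.

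Promoter peaks were rich in CpG. In windows that reached 150 bases to either side of the peak centre, the median GC content was 61.8% (95% interval of the median 61.5% to 62.1%) and the median ratio of observed to expected CpG pairs was 0.65 (0.64 to 0.66). For Ring1B peaks at 4 to 100 kb these medians were 52.5% and 0.19, and beyond 100 kb they were 48.2% and 0.18. A window was counted as CpG-rich with a GC content of at least 50% and an observed over expected ratio of at least 0.6. Of promoter peaks 55.5% were CpG-rich (53.9% to 57.1%), against 12.6% (11.7% to 13.6%) at 4 to 100 kb and 7.69% (6.46% to 9.14%) beyond. The annotated 5′ ends of all protein-coding genes were CpG-rich in 48.0%, those of genes with a promoter peak in 61.4% (59.4% to 63.4%) and those of genes without one in 46.5% (45.8% to 47.2%). CpG content fell with distance from the TSS, from 76.9% of peaks that held a TSS to 63.0% of the others within 1000 bp, 38.7% from there to 2000 bp and 29.3% from 2000 to 4000 bp.

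**Figure D1:**
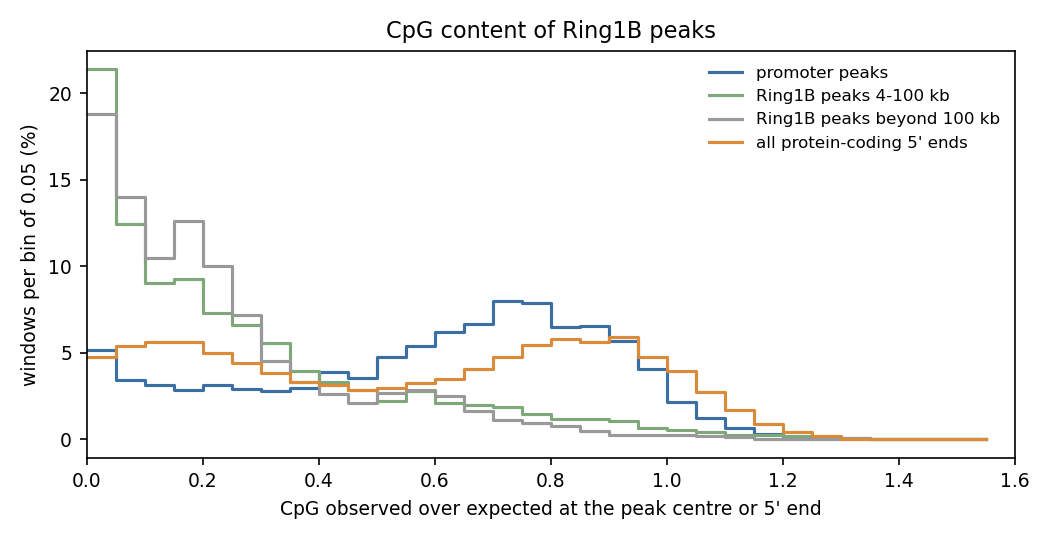
The share of windows (150 bases to either side, vertical axis, percent) in each bin of observed over expected CpG (horizontal axis, bins of 0.05) is drawn for promoter peaks, more distant Ring1B peaks and all protein-coding 5′ ends. Promoter peaks centre on a median of 0.65, while Ring1B peaks at 4 to 100 kb and beyond 100 kb pile up below 0.4, with medians of 0.19 and 0.18.

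Short motifs were counted on both strands of the same windows. The letters CGCG were present in 61.2% of promoter peaks, 16.2% of peaks at 4 to 100 kb and 51.6% of all 5′ ends. GGGCGG, the core of a GC box, was present in 32.1% of promoter peaks and 45.8% of all 5′ ends. For TCCCGC, contained in sites of E2F factors, the shares were 26.1% and 27.2%. CACGTG, an E-box, was found in 7.92% and 7.30%, AGGTGTG, a T-box motif, in 6.53% and 5.01%, and CAGCACC, part of the site of the repressor REST, in 12.8% and 8.24%. Peak windows sat at peak centres, often away from the TSS. At the 5′ ends of genes with a promoter peak GGGCGG was present in 57.2%, against 44.5% for genes without one. These shares were 67.2% and 49.9% for CGCG, 34.9% and 26.4% for TCCCGC, and 9.65% and 7.04% for CACGTG. They were 5.14% and 5.00% for AGGTGTG and 8.22% and 8.24% for CAGCACC. Ring1B peaks at 4 to 100 kb held AGGTGTG in 8.74%. A match is a run of letters and not an observed site.

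Peaks gathered at and just downstream of the TSS. Of promoter peaks 778 (20.9%, 19.6% to 22.2%) held an annotated TSS, 1873 (50.3%) came within 500 bp and 2404 (64.6%) within 1 kb. The centre lay downstream of the nearest TSS in 2440 peaks (65.5%, 64.0% to 67.0%). The first 500 bp downstream held 984 peak centres, more than the 459 in the 500 bp upstream and the 493 in the next 500 bp downstream. Centres fell in an exon in 43.5% of promoter peaks, as at Six3 and Olig2, in an intron in 36.9% and outside protein-coding genes in 19.6%. At 4 to 100 kb 7.16% were exonic, 36.6% intronic and 56.2% outside.

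**Figure D2:**
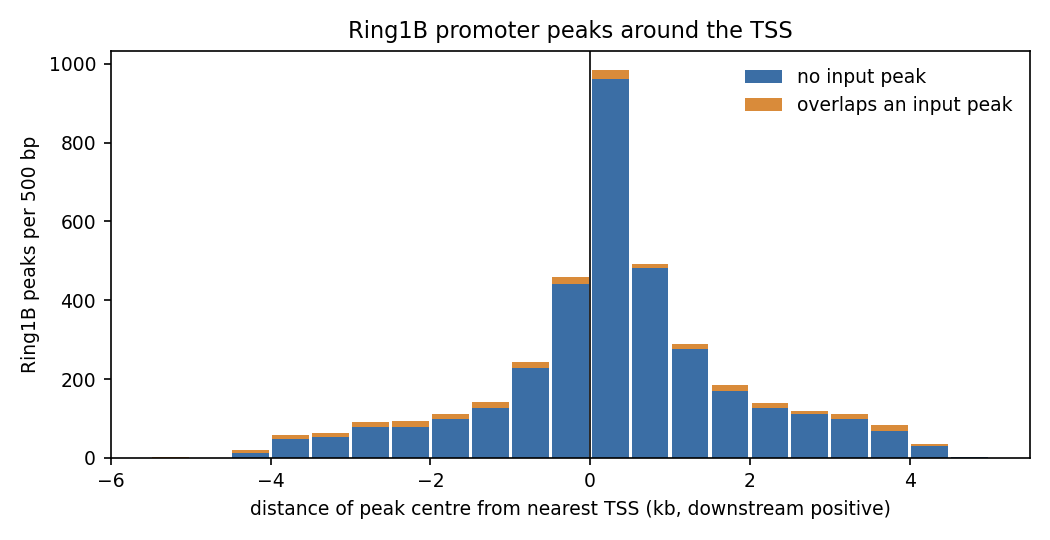
Bars count Ring1B promoter peaks by the distance of the peak centre from the nearest TSS (horizontal axis in kb, downstream positive, bins of 500 bp), split by overlap with an input peak. The tallest bar is the first 500 bp downstream, with 984 peaks.

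Most peaks were short. The median length was 339 bp (interquartile range 241 to 518 bp), and 459 peaks (12.3%) had the shortest listed length of 200 bp, while 348 (9.35%, 8.45% to 10.3%) reached 1 kb, a share of 2.91% at 4 to 100 kb and 2.30% beyond. The longest peaks without an input peak were at Tchh, a hair follicle protein gene (4388 bp), Skor1, which encodes a transcriptional corepressor (4287 bp), Olig2 (3208 bp), Gm996 (3183 bp) and Six2 (3127 bp). The Tchh peak held 2741 Ring1B, 226 Dzip3, 283 ubH2A and 52 input reads, and the Skor1 peak 2624, 191, 200 and 44. Long peaks at both genes thus carried many Ring1B reads with few reads of the other libraries. Both peaks were called in the Ring1B library, which favours its reads.

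The 3723 peaks lay at 2238 of 22380 protein-coding genes (10.0%). Counting only peaks that overlapped no input peak left 2169 genes (9.69%), and a distance of 1 kb left 1686 (7.53%). A single promoter peak was found at 1426 genes (63.7% of genes with one), 2 peaks at 390 (17.4%), 3 at 178 (7.95%) and 5 or more at 144 (6.43%). Among genes whose peaks all lacked an input peak, Six3, a homeobox gene of the forebrain and eye, had the most with 14, followed by Hoxa7 with 12 and by Lmx1b, Hoxa3 and Nkx2-2 with 11 each. The Hoxa3 peaks lay around annotated TSS far apart, with peaks over a TSS at chr6:52122313-52122750 and chr6:52162588-52163443. Hoxa3 and Hoxa7 also shared peaks, such as chr6:52165685-52166625. Many promoter peaks were pieces of wider domains, since joining peaks closer than 1 kb gave 2412 regions and lowered the genes with 2 or more from 812 to 350. A peak was near 2 or more genes in 350 cases (9.40%). By chromosome the share of genes with a promoter peak lay between 7.0% on chromosome 7 and 14.1% on chromosome 18, except for 2.79% on X (26 of 932 genes) and none of 17 genes on Y.

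Developmental transcription factor genes were bound often. In 9 lists of developmental transcription factor families, 220 of 317 genes had a promoter peak (69.4%), next to the 10.0% of all genes. The median of Ring1B reads summed over a gene's promoter peaks was 815 for these 220 genes and 128 for all genes with a peak, and the median number of peaks was 3.00 against 1.00. They made up 9.89% of the bound gene symbols, and 1850 of 2225 bound symbols were in none of the 31 lists used.

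Hox genes, which pattern the body axis, were bound at 32 of 39 (82.1%, 67.3% to 91.0%). The Hoxa cluster held 48 distinct peaks over 25937 bp with 10271 Ring1B reads, beside 1114 Dzip3, 1267 ubH2A and 371 input reads. The Hoxb cluster held 27 peaks and 5213 Ring1B reads, the Hoxc cluster 17 peaks and 2773, and the Hoxd cluster 26 peaks and 5889. All clusters were therefore occupied, with more peaks and reads in Hoxa than in the others. Hoxa9 held 2944 Ring1B, 285 Dzip3, 279 ubH2A and 78 input reads in 10 peaks. Hoxd11 held 2574, 192, 264 and 75 reads in 8 peaks. Hox genes without a promoter peak included Hoxd8, Hoxd4 and Hoxc13, where the nearest Ring1B peak was 5.71 kb, 6.83 kb and 32.6 kb away.

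Homeobox genes outside these clusters were bound at 102 of 121 (84.3%, 76.8% to 89.7%). Six3 led with 3992 Ring1B, 334 Dzip3, 364 ubH2A and 108 input reads over its 14 peaks. Isl2, a LIM-homeobox gene of motor neurons, held 3493, 192, 318 and 64 reads, and Lmx1b, required for dorsal limb pattern, held 3309, 227, 328 and 88. Their Ring1B reads exceeded the Dzip3 and the ubH2A reads by about an order of magnitude. The genes were picked for most Ring1B reads and the reads counted inside Ring1B peaks, so the selection favours this excess. The 19 genes without a promoter peak included Otx2, where the nearest Ring1B peak was 1778 kb away, Meis2 at 207 kb and Hhex at 8.38 kb.

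Among Pax genes, 8 of 9 were bound, all but Pax4. Pax2, which acts in kidney and hindbrain, held 2800 Ring1B, 209 Dzip3, 316 ubH2A and 73 input reads in 8 peaks. T-box genes were bound at 12 of 16 and Gata genes, zinc finger regulators of endoderm and blood, at 5 of 6, all but Gata1. Tbx1, a regulator of the pharyngeal arches, held 3649 Ring1B, 457 Dzip3, 409 ubH2A and 78 input reads in 8 peaks. Gata2 held 2391, 276, 349 and 61 reads in 10 peaks. Sox genes were bound at 11 of 18, with most reads at Sox9 (1615, 121, 164 and 30 in the same order). Sox2, which keeps ES cells pluripotent, had no Ring1B peak within 192 kb.

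The bHLH genes, which include regulators of neurogenesis and myogenesis, were bound at 28 of 55 (50.9%) and the forkhead (Fox) genes at 18 of 42 (42.9%). Olig2, a regulator of motor neurons and oligodendrocytes, held 3097 Ring1B, 169 Dzip3, 297 ubH2A and 63 input reads in 6 peaks. A single peak of 2394 bp at Neurod2 held 1888, 144, 110 and 6 reads. Foxb2 held 3420 Ring1B, 217 Dzip3, 254 ubH2A and 66 input reads in 6 peaks. Genes of the bHLH list without a promoter peak included Neurod1 (nearest Ring1B peak 480 kb), Myod1 (20.5 kb), Hes1 (139 kb) and Id2 (215 kb), and in the Fox list Foxo1, Foxk1, Foxm1, Foxd3 and Foxh1. Zic and Gli genes were bound at 4 of 11, with 1677 Ring1B reads at Zic4 in 7 peaks, among them the 4 peaks of Zic1 with 1317 reads. Over the 9 lists 97 genes had no promoter peak, of which 12 had a Ring1B peak at 4 to 10 kb and 50 within 100 kb. Of all 22380 genes 2238 had a Ring1B peak within 4 kb and 3185 within 10 kb. For 100 kb the share over all genes was not counted.

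**Figure D3:**
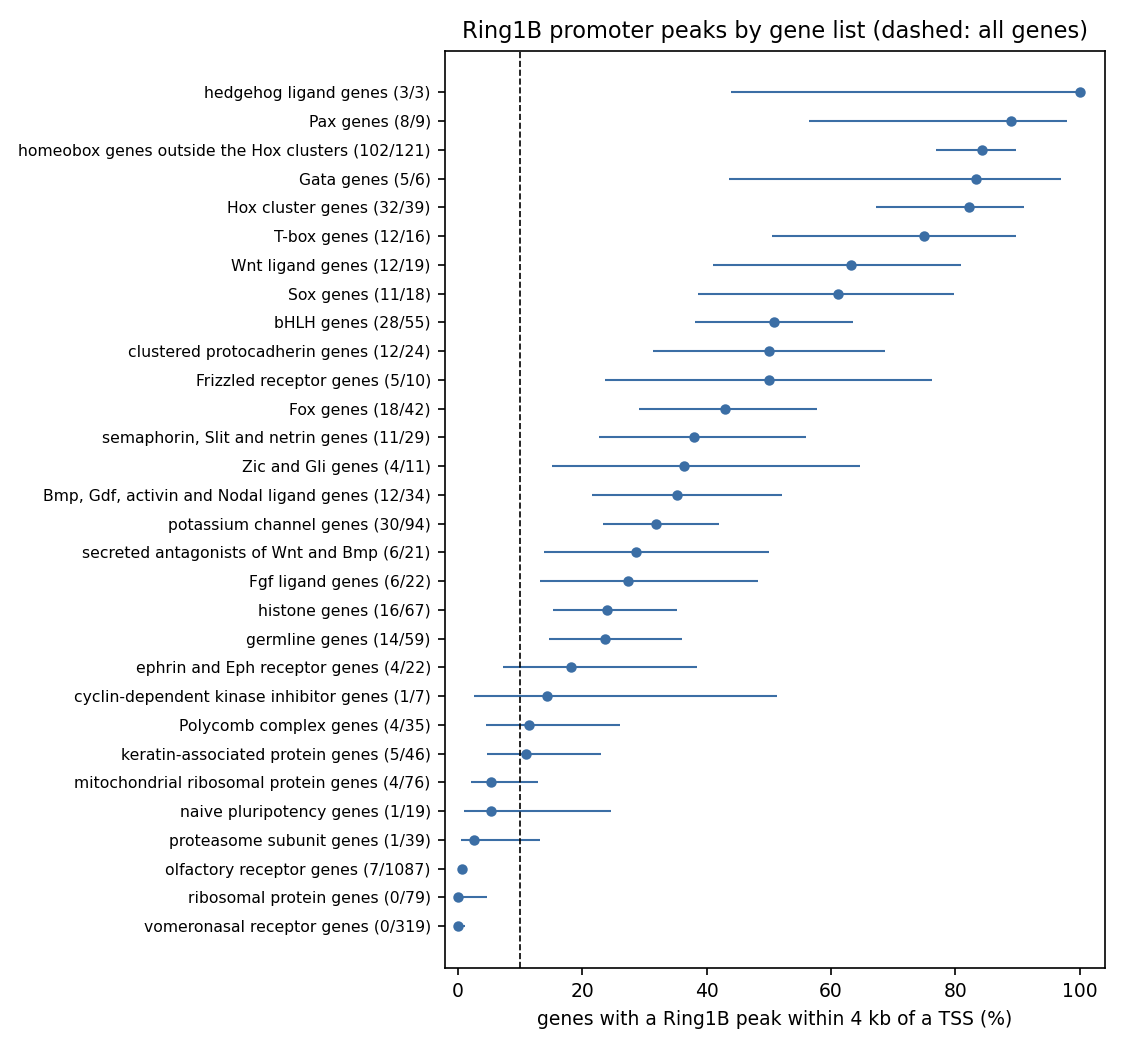
Points give the percentage of the genes of each list with a Ring1B peak within 4 kb of a TSS (horizontal axis), with 95% Wilson intervals, and the dashed line marks the 10.0% of all protein-coding genes. The homeobox, Hox, Pax, Gata and T-box lists lie at 75% or above, and ribosomal protein and vomeronasal receptor genes lie at 0%.

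Among signalling genes the ligands of the hedgehog family were all bound, and Wnt ligands at 12 of 19 (63.2%, 41.0% to 80.9%). Dhh held 1653 Ring1B, 185 Dzip3, 158 ubH2A and 37 input reads, and Shh, the ligand of notochord and floor plate, held 298, 72, 46 and 9. Wnt1, a midbrain and neural crest signal, held 1800, 223, 385 and 39 reads. Bmp, Gdf, activin and Nodal genes were bound at 12 of 34 (35.3%, 21.5% to 52.1%) and Fgf genes at 6 of 22 (27.3%, 13.2% to 48.2%), with intervals that overlapped that of the Wnt list, and Fgf8 held 649 Ring1B, 71 Dzip3, 109 ubH2A and 12 input reads. Secreted antagonists of Wnt and Bmp were bound at 6 of 21 (28.6%), with Grem1 first at 547 Ring1B reads. On the receptor side Frizzled genes were bound at 5 of 10 and Eph receptors and ephrins at 4 of 22 (18.2%, 7.31% to 38.5%).

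Genes of neurons and cell contacts were bound at intermediate rates. Semaphorin, Slit and netrin genes, which guide axons, were bound at 11 of 29 (37.9%), and potassium channel genes at 30 of 94 (31.9%, 23.4% to 41.9%), with Kcnk9 and Kcna1 at 1189 and 864 Ring1B reads. Clustered protocadherin genes, cell adhesion genes in arrays, were bound at 12 of 24, but only 2 of these had a peak within 1 kb of a TSS. The 2 were Pcdha11 and Pcdhgc5, each counted as 1 gene, with annotated spans of chr18:37089939-37347311 and chr18:37833989-38001527 that hold several TSS. Pcdhgc5 held 7 peaks and 1713 Ring1B reads, spread from chr18:37881803 to chr18:37923635.

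Germline genes, which act in meiosis and gamete formation, were bound at 14 of 59 (23.7%, 14.7% to 36.0%) with a median of 93.0 Ring1B reads. Hspa2, a chaperone gene of spermatocytes, held 814 Ring1B, 82 Dzip3, 106 ubH2A and 10 input reads in 1 peak. Tdrd6, a Tudor domain gene of spermatids, held 290, 49, 34 and 1, and Dazl, an RNA-binding protein gene of germ cells, held 76, 17, 30 and 1. The synaptonemal complex genes Sycp1, Sycp2, Sycp3 and Syce1 held 114, 126, 100 and 66 Ring1B reads. Slc25a31, a testis carrier of ADP and ATP, held 69 Ring1B reads with 0 Dzip3, 2 ubH2A and 0 input reads. All of these genes, Hspa2 included, held fewer Ring1B reads than the leading gene of each transcription factor list, the lowest of which was Sox9 with 1615. Those leading genes are the highest of their lists. The median of the 220 bound transcription factor genes was 815, close to Hspa2, and some of them held few reads, such as Hoxa4 with 74 and Gbx1 with 52. Of the 15 germline peaks 13 were CpG-rich and 12 held CGCG. The shares were 55.5% and 61.2% of all promoter peaks and 76.9% and 81.4% of those holding a TSS. Either CACGTG or TCCCGC was in 5 of the 15, next to 31.7% of all promoter peaks and 31.9% of all 5′ ends.

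Of the 19 naive pluripotency genes matched, Esrrb alone was bound, with 279 Ring1B, 15 Dzip3, 56 ubH2A and 13 input reads in 2 peaks. Both peaks, chr12:87762618-87762934 and chr12:87763343-87763869, lay near an annotated TSS inside the gene and not at its 5′ end at 87702067. The nearest Ring1B peak was 33.8 kb from Pou5f1, 94.1 kb from Nanog and 12.2 kb from Zfp42. Polycomb genes were bound at 4 of 35 (11.4%, 4.54% to 26.0%), near the 10.0% of all genes. Cbx8, a chromodomain subunit of Polycomb repressive complex 1, held 1428 Ring1B, 257 Dzip3, 256 ubH2A and 51 input reads in 7 peaks, while Mga and Phc2 had 1 peak of 200 bp each with 59 and 58. Rnf2 and Dzip3 themselves had no Ring1B peak within 151 kb and 474 kb. Of 7 cyclin-dependent kinase inhibitor genes Cdkn1c, an imprinted gene, was bound with 676 Ring1B, 88 Dzip3, 120 ubH2A and 8 input reads, and Cdkn2a and Cdkn2b lay 477 kb and 505 kb from a Ring1B peak.

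Few genes of the housekeeping lists were bound, although most of their 5′ ends were CpG-rich. None of 79 ribosomal protein genes had a promoter peak (0%, upper limit 4.64%), with 88.6% of their 5′ ends CpG-rich. Proteasome subunit genes were bound at 1 of 39 (2.56%, 0.454% to 13.2%) and mitochondrial ribosomal protein genes at 4 of 76 (5.26%, 2.07% to 12.8%). Both of these intervals included the 10.0% of all genes. Of the bound genes 0 and 1 had a peak within 1 kb, and the CpG-rich shares of the 2 lists were 90.2% and 86.8%. Over all genes 13.1% (12.4% to 13.7%) of those with a CpG-rich 5′ end and 7.22% (6.77% to 7.71%) of the others were bound. Olfactory receptor genes, none of which had a CpG-rich 5′ end, were bound at 7 of 1087 (0.644%, 3 within 1 kb), vomeronasal receptor genes at 0 of 319 and keratin-associated protein genes at 5 of 46 (10.9%). Histone genes, which lie in tight arrays, were bound at 16 of 67 (23.9%), of which 9 had a peak within 1 kb, but neighbours shared peaks. Hist1h2ad, Hist1h2ae, Hist1h2bf, Hist1h2bg and Hist1h3d counted the same peak of 406 bp with 125 Ring1B, 22 Dzip3, 50 ubH2A and 4 input reads.

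A list of genes that the study followed by expression, single-locus ChIP or chromosome conformation capture held 10 members, of which 4 had a Ring1B promoter peak. Bspry and Shank3 are named there for conformation capture. Neurog1, a neurogenic bHLH gene, had a peak of 1181 bp over its TSS with 713 Ring1B, 68 Dzip3, 42 ubH2A and 6 input reads. T, which encodes Brachyury, had 3 peaks, and the strongest of them held 345, 17, 24 and 1. The 3 peaks of Eomes, a T-box gene of mesendoderm, held 62, 185 and 85 Ring1B reads, and a pair of peaks at Shank3, a synaptic scaffold gene, held 135 and 62. None of the 10 peaks at these 4 genes overlapped a Dzip3 or ubH2A peak. Such overlap was rare in general, at 5.13% for Dzip3 and 5.65% for ubH2A among the 3487 promoter peaks off input peaks. With shares this low, 10 peaks cannot show whether these genes differ from other promoters. The nearest Ring1B peak was 31.7 kb from Bspry, 67.1 kb from Stra8, 67.7 kb from Acta1, 113 kb from Cdh2, 480 kb from Neurod1 and 509 kb from Rhox6.

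**Figure D4:**
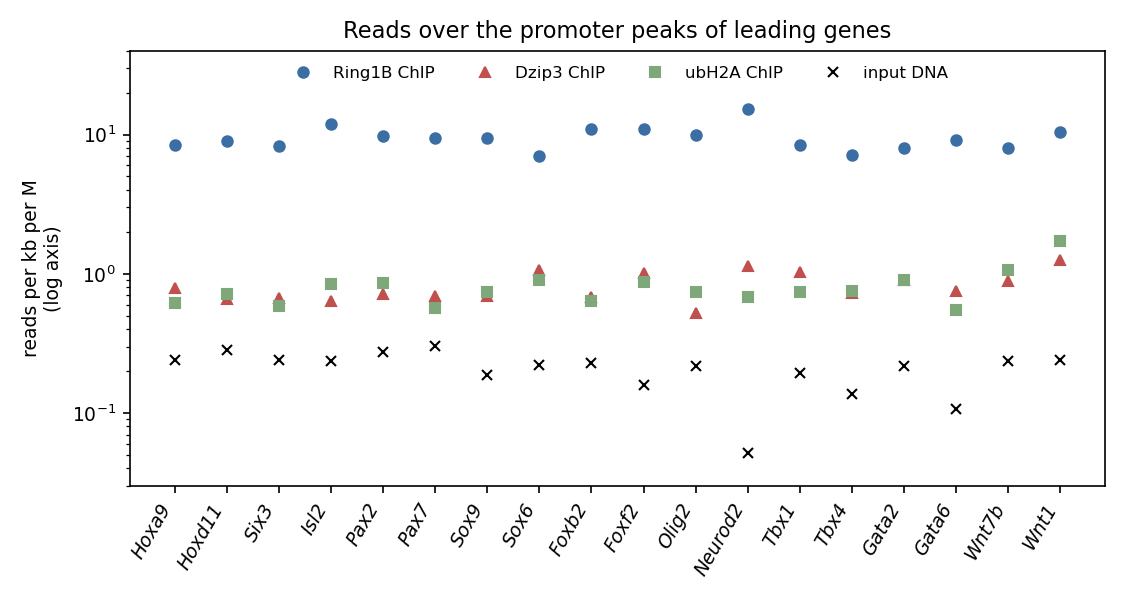
Points give the reads of each library per kb of promoter peak and per M reads of the library (vertical log axis) for the 2 genes with most Ring1B reads in 9 gene lists. At every one of the 18 genes Ring1B lies highest, Dzip3 and ubH2A lie close to each other and below it, and input DNA lies lowest. The genes were picked by Ring1B reads and the reads counted in Ring1B peaks, which favours Ring1B.

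Few promoter peaks overlapped a peak of another library. Of all Ring1B peaks 32.5% overlapped a Dzip3 peak, 33.2% a ubH2A peak and 16.2% an input peak. At promoters the shares were 10.2% (379 peaks, 9.25% to 11.2%), 11.3% (421 peaks, 10.3% to 12.4%) and 6.34% (236 peaks, 5.60% to 7.17%). At 4 to 100 kb they were 41.8% (40.4% to 43.2%), 43.9% and 21.9%, and beyond 100 kb 57.6%, 52.6% and 21.9%. With input-overlapping peaks left out, 5.13% of 3487 promoter peaks (4.45% to 5.92%) overlapped a Dzip3 peak, compared with 29.5% at 4 to 100 kb and 48.2% beyond. No other peak lay on 86.2% of promoter peaks, against 45.9% at 4 to 100 kb.

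At the gene level a Dzip3 peak overlapped a promoter peak of 242 of the 2238 genes (10.8%) and a ubH2A peak one of 253 genes (11.3%). Among the 220 bound transcription factor genes this held for Dzip3 at 2 genes (0.909%), Hoxc9 and Lhx5. Lhx5 held 1858 Ring1B, 328 Dzip3, 208 ubH2A and 35 input reads in 5 peaks. Among signalling genes a Dzip3 peak lay at Wnt10b, 1 of 12 bound Wnt genes, and at Fzd10, 1 of 5 bound Frizzled genes. A ubH2A peak lay at Wnt1 and Wnt7b, 2 of 12 bound Wnt genes, and at Sfrp5, 1 of 6 bound antagonist genes. No bound gene of the Fgf, Bmp, hedgehog and Eph lists had either, next to the 10.8% and 11.3% above. The genes with a Dzip3 or ubH2A peak were named after their values were seen.

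Overlap depends on the threshold of the caller in each library, so read densities were compared in peaks without an input peak. The density is the number of reads per kb of peak per M reads of the library, and an even spread over the sequenced genome would give 0.391. The median Ring1B density was 6.24 at promoters, 5.87 at 4 to 100 kb and 5.82 beyond, so the sets were close in the library that selected them. The median Dzip3 density was 1.13 at promoters (1.10 to 1.17), 2.72 (2.63 to 2.82) at 4 to 100 kb and 3.90 (3.72 to 4.13) beyond. For ubH2A it was 0.998, 2.23 and 2.79, and for input DNA 0.187 (0.177 to 0.194), 0.386 and 0.462. The Dzip3, ubH2A and input densities were thus all lowest at promoters. In 93.8% of these promoter peaks Dzip3 reads per M exceeded those of input DNA, and in 95.2% ubH2A reads did. These shares were 94.9% and 96.6% at 4 to 100 kb and 97.4% and 96.6% beyond. Leaving out input-overlapping peaks favours low input reads in all of these sets.

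**Figure D5:**
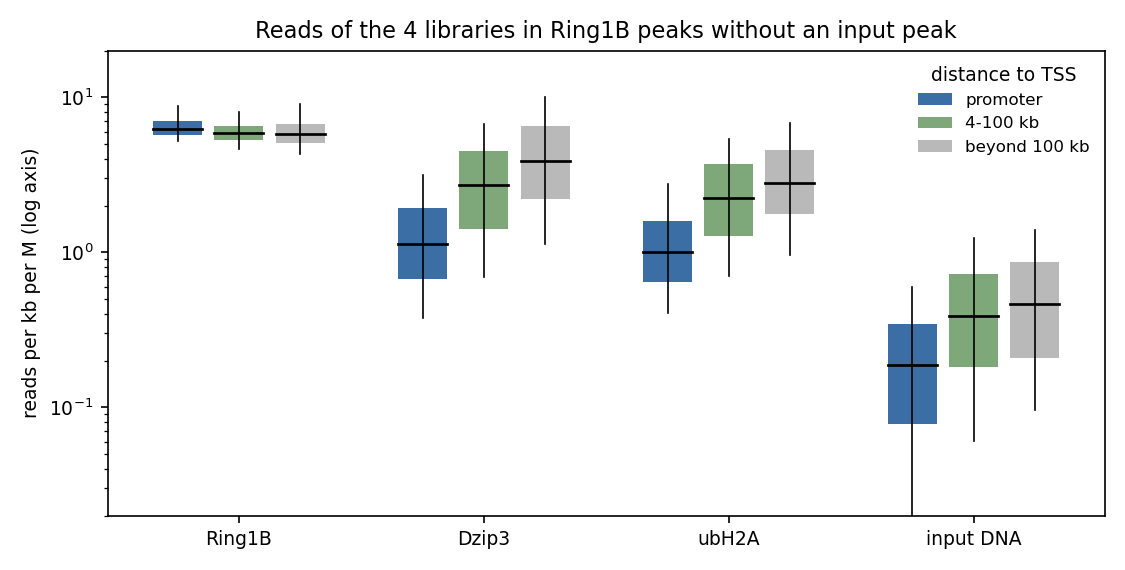
Boxes span the middle 50% of read densities (vertical log axis, reads per kb per M) of each library in Ring1B peaks without an input peak, the line in each box is the median and the thin lines reach the lowest and highest 10%, leaving the axis where that value is 0. Ring1B medians lie between 5.82 and 6.24 in all sets, and the promoter boxes of Dzip3, ubH2A and input DNA lie below those of distant peaks.

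The lower input level at promoters enters every ratio to input DNA. The listed fold of Ring1B over input DNA had a median of 27.4 at promoters and 13.1 at 4 to 100 kb, although the Ring1B densities differed little. Summed over peaks without an input peak, reads per M relative to input DNA were 33.7 for Ring1B, 5.97 for Dzip3 and 5.17 for ubH2A at promoters. At 4 to 100 kb the same ratios were 13.9, 6.94 and 5.50, and beyond 100 kb 11.4, 8.86 and 6.01. Relative to input DNA the gap in Dzip3 and ubH2A between promoters and distant peaks was therefore smaller than in read density. Input density also varied with position, with a median of 0.132 in the first 500 bp downstream of the TSS and 0.333 at 3500 to 4000 bp upstream. The part of input level, CpG content and peak length in these differences was not tested.

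Within promoters, Dzip3 and ubH2A densities were lower where Ring1B density was higher. Between the 20% of peaks with the lowest and the 20% with the highest Ring1B density, the median Dzip3 density went from 1.47 to 0.947, ubH2A from 1.19 to 0.801 and input DNA from 0.207 to 0.158. Dzip3 peaks overlapped 6.59% of the first group and 6.30% of the second. By height in RPM instead, and with input-overlapping peaks included, the promoter peaks in the stronger 50% of the list overlapped Dzip3 peaks in 14.8% and ubH2A peaks in 14.8%, above the 10.2% and 11.3% of all promoter peaks. Between the same groups of density the median peak length went from 300 to 788 bp and the share of peaks holding a TSS from 17.8% to 34.5%. Across the 3487 promoter peaks without an input peak, which share the same 4 libraries and their mappability, Spearman's rho was -0.16 for Ring1B with Dzip3, -0.17 for Ring1B with ubH2A and 0.48 for Dzip3 with ubH2A. In the peaks beyond 100 kb (n = 1190) these values were 0.41, 0.34 and 0.51.

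Promoter peaks fell into kinds that differed in place and composition. The 3210 peaks with no other peak had a median GC content of 62.8% and observed over expected CpG of 0.69, lay at a median of 412 bp from a TSS and were CpG-rich in 62.7%. The 99 peaks with both a Dzip3 and a ubH2A peak but no input peak had medians of 53.8% and 0.17, lay at a median of 1481 bp, and were CpG-rich in 9.09%. In an intron lay 34.3% of the former and 56.6% of the latter. The classes were set by Dzip3 and ubH2A peaks, so their densities differ by selection and are given as a description. Median Ring1B densities were 6.27 and 6.23, while Dzip3 densities were 1.04 and 5.94, ubH2A densities 0.940 and 5.00 and input densities 0.173 and 0.761. Split by sequence instead, the 2063 CpG-rich promoter peaks without an input peak overlapped a Dzip3 peak in 1.41% and the 1424 others in 10.5%.

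Individual loci show both kinds. The Tmem125 peak whose repeating sequence is printed above lay 3105 bp from the TSS and held 2836 Ring1B, 1393 Dzip3, 1577 ubH2A and 96 input reads. The longer Muc19 peak held 4426, 1325, 1340 and 143 reads, and an intronic peak of 284 bp at Dyrk4 held 453, 742, 762 and 14. In these peaks Dzip3 and ubH2A reads were closer to the Ring1B reads than at the developmental genes above. Other peaks high in the list had another balance. Olig2 held 2040, 93, 171 and 20 reads in its longest peak, and Nr5a1, a nuclear receptor gene of the gonads and adrenal gland, held 1963, 130, 154 and 19. Sp9, a zinc finger gene of the forebrain, held 2071, 87, 118 and 6.

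The 236 promoter peaks on input peaks had a median fold over input DNA of 1.5, a median GC content of 46.2% and were CpG-rich in 1.69%. They were the only promoter peaks of 69 genes (3.08%). All 33 peaks of Sfi1, 24 of 27 at C130026I21Rik, 17 of 18 at Sp110, 16 of 17 at Sp140 and all 12 at Gm15319 were of this kind. The Sfi1 peaks held 59242 Ring1B, 59145 Dzip3, 72062 ubH2A and 30764 input reads, so the input reads came nearer to the ChIP reads there than at Tmem125, Muc19 or Dyrk4. A peak of 1428 bp at Gm10800 held 1237490 Ring1B, 1436600 Dzip3, 1777750 ubH2A and 3192770 input reads, with a listed fold of 0.348, and one of 38533 bp on chromosome 9 spanned 12 predicted genes. The 4 promoter peaks with over 100000 input reads held 98.8% of the input reads in all promoter peaks. In 1 promoter peak, near Olfr843, the listed Ring1B reads were fewer than the listed height.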

How the data were processed

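ChIP-seq reads of E14 mES cells were aligned to mm9 by the authors with 1 mismatch allowed, and the Partek Genomics Suite (FDR 0.1) was used for peak calling on each library. The authors deposited for each peak its position, counts of reads (the height in extended reads and the reads of all 4 libraries), the height as RPM, the scaled ratio (fold) to input DNA and the percent of its length covered by other peaks. The smallest Ring1B height was 31 extended reads or 0.599 RPM. Library sizes implied by height and RPM were 51.8 M reads (Ring1B), 53.3 M (Dzip3), 67.0 M (ubH2A) and 48.3 M (input DNA), to which the counts were scaled. The methods of the study give a lower depth of uniquely mapped reads, and every density printed here rests on the implied sizes.

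Peak positions were used as listed, and overlap of at least 1 bp was read from the listed percent. Distances were taken to every TSS of 78261 transcripts of 22380 protein-coding gene IDs (22238 symbols) in the GENCODE annotation of mm9 (Ensembl release 65), and sequences came from the mm9 genome. Gene lists were matched by symbol. Of the germline list Gasz, Majin, Meiob, Meioc and Tdrd5 were not matched, nor was Tfcp2l1 of the pluripotency list. The members and the lists were chosen with earlier results of these data known. Genes named are, per list, those with most Ring1B reads in promoter peaks, those with most peaks, some unbound members of short lists, and the highest or longest peaks, while other unbound genes, the further germline genes and the genes with Dzip3 or ubH2A peaks were named after their values were seen. Printed windows in untranslated regions were left out, and some genes of the lists are not reported here by name. Shares have 95% Wilson intervals and medians order-statistic intervals.

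Alternatives were distances of 1, 2 and 10 kb, the 5′ end of the gene alone, input-overlapping peaks left out, the stronger 50% of the list by RPM, ratios of summed reads, windows of 250 bases to either side and peaks merged within 1 kb. Distance and overlap functions were tested on simulated data with planted distances. Tools were pysam 0.24.0, pandas 2.3.3, numpy 2.4.6, matplotlib 3.10.9 and scipy 1.17.1 under Python 3.11.15.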

Additional observations from a re-analysis of the deposited data

How the results depend on the processing

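The comparisons rest on 1 library per target, so no replicate could be left out, and nothing measured here separates antibodies, fragmentation or depth from the targets. No paired analysis was possible because each target has a single library. Within 1 kb there were 2404 promoter peaks (23.8% of the list), 77.9% of them within 500 bp of a TSS, with Dzip3, ubH2A and input densities of 1.13, 0.980 and 0.162 and overlaps of 6.03%, 6.86% and 3.49%. A shorter distance takes fewer peaks by construction. The share of the list was 29.9% within 2 kb and 48.5% within 10 kb. With the gene 5′ end alone the share was 29.9%, with 45.4% within 500 bp, densities of 1.14, 0.983 and 0.189 and overlaps of 8.06%, 9.31% and 5.28%. Without input-overlapping peaks the share was 41.1%, with 52.1% within 500 bp, densities of 1.13, 0.998 and 0.187, a GC content of 62.5% and observed over expected CpG of 0.67. The stronger 50% of the list gave 1899 peaks and 1188 genes, 53.7% within 500 bp, densities of 7.08 for Ring1B and 1.09, 0.939 and 0.182 for Dzip3, ubH2A and input DNA, and overlaps of 14.8%, 14.8% and 9.11%. Windows of 250 bases to either side had a GC content of 60.7%, and merging left 350 genes with 2 or more peaks. Ratios of reads summed over all promoter peaks fell below 1 for Ring1B (0.391), Dzip3 (0.351) and ubH2A (0.365), where 4 peaks held 98.8% of the input reads, and without input-overlapping peaks, an alternative chosen after seeing the data, Ring1B was at 33.7. The cause of the other differences was not tested. Of the 31 lists the count of bound genes moved by over 1.5 times in 5 within 1 kb (protocadherin, proteasome, mitochondrial ribosomal protein, histone and olfactory receptor genes) and in none without input-overlapping peaks.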

Other observations

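Gene families were also grouped by the letters that open the symbol, a grouping chosen after the values were seen. Of 359 such groups with at least 8 genes, 117 had no gene with a Ring1B promoter peak. This count of groups cannot be set against the 10.0% of all genes that were bound. At that rate a group of few genes can hold no bound gene. All 8 Lhx genes, LIM-homeobox regulators, were bound, as were 11 of 14 Nkx genes and 7 of 15 Pou genes. Outside transcription factors and the lists above, bound groups included Chst genes, which encode carbohydrate sulfotransferases (7 of 14), Grm genes, the metabotropic glutamate receptors (4 of 8), Adcy genes, the adenylyl cyclases (4 of 10), Adamts genes, secreted metalloproteases (7 of 19), Galnt genes, which start O-glycans (5 of 13), and Cdh genes, the cadherins (8 of 23). Groups with no bound gene included 41 Defb genes of the beta-defensins, 32 Clec genes of the C-type lectins, 30 Rhox genes of the reproductive homeobox cluster on X, 30 Snx genes of the sorting nexins, 27 Klk genes of the kallikreins, 27 Polr genes of RNA polymerase subunits and 23 Ccl chemokine genes. The Speer group had 5 of 9 genes bound and 3 without an input peak.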
